A study of Mus musculus with 8 samples.

Results

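Collagen chain genes were taken as every tested probe set whose platform gene symbol reads Col, a number, the letter a and a number. They came to 42 of the 19494 named genes, with 1 probe set each, and the symbols alone chose them. The group was proposed with the IDE-KD differences of these arrays already known, so those differences are described here and support nothing. By structure, 11 genes encode fibrillar chains, 6 the type IV chains of basement membranes and 25 other chains. Col7a1 and Col12a1 were not analysed here.

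The values came from mouse alphaTC1.9 cells, a cultured alpha cell line made from a glucagon-producing tumour of the pancreas, hybridised to Clariom S arrays. The control group held 4 arrays of cells labelled only as control. The IDE-KD group held 4 arrays of the same line given a small interfering RNA against Ide, the gene of insulin-degrading enzyme. Both groups grew in the same high-glucose medium with no further treatment. The labels call the arrays biological replicates but do not say whether they came from separate cultures, so the spread between arrays may be in part technical. Neither the kind of control nor the interval before harvest was stated. The labels give pancreatic tissue beside the cell line, but the samples were cultured cells.

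Values are log2 expression values, on which 1 unit is a 2-fold change. The median tested probe set read 5.10 to 5.17, depending on the array. Ide, which checks the labels, averaged 8.62 ± 0.10 over the 4 control arrays and 8.01 ± 0.11 (SD) over the 4 IDE-KD arrays, with no overlap of the groups (exact two-sided permutation p = 0.0286, the smallest that 4 against 4 arrays allow). The alpha cell markers that were measured, Gcg, Irx2, Chga, Chgb, Pax6 and Isl1, all had mean values of 8.325 or more. Among 9 measured fibroblast and stellate cell markers, Fn1, Vim and Thy1 alone stood above the median array control row, a limit of 4.52 explained with the levels of the collagen genes. The small leucine-rich proteoglycan genes Dcn and Lum, which define fibroblasts, read 2.985 and 2.399 in control cells.

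Collagens are secreted proteins whose chains wind around each other through repeats of glycine and other residues, many of them proline. Fibrillar chains assemble into the ropes of connective tissue, type IV chains into the sheets of basement membranes, and the remaining chains decorate fibrils, form microfilaments or networks, or span the cell membrane. Fibroblasts and stellate cells make most fibrillar collagen of the pancreas. In islets the vascular basement membrane holds type IV collagen, much of it made by endothelial cells.

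Col4a1 and Col4a2 encode the chains that form the common type IV molecule, and the genes lie head to head on mouse chromosome 8. Their start region is shown because both genes had their highest values on the same arrays. In the RefSeq promoter table (build GRCm38.p6) the start of Col4a2 on the plus strand lies at 11312805 and that of Col4a1 on the minus strand at 11312826, with 20 bases between them. On these coordinates each gene is read toward the other's start. The annotated transcripts thus overlap at their first bases, and the 20 bases lie inside both. The 80 bases at chr8:11312776-11312855, read 5′ to 3′ on the plus strand, follow, with capitals for the GC box GGGCGG.
Col4a2 and Col4a1 start region: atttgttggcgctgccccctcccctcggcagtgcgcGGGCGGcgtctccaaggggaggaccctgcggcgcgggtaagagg
Of these bases, 72.5% are G or C. The promoter table held 34 of the 42 genes in 37 entries, from 250 bases before to 50 after a start. GGGCGG or its reverse complement CCGCCC was found in 59.5% of the collagen entries and in 35.7% of all 32851 entries. The CCAAT box (CCAAT or ATTGG) was found in 32.4% against 37.4%, and the TATA box (TATAAA or TTTATA) in 13.5% against 13.6%. These matches describe letters in a window and are not evidence of factor binding.

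Collagen signals were low in both groups. The mean over the 8 arrays ran from 2.67 for Col10a1, the network collagen of growth-plate cartilage, to 6.80 for Col8a2, a network collagen of the cornea. Each mean was set against rows that are array controls. Their median, 4.52, is the limit here, with genes at or below it called dim and those above it bright. Of the 42 genes, 19 were bright (45.2%), against 57.0% of all 22142 tested rows. The bright ones were 3 of 11 fibrillar genes, 3 of 6 type IV genes and 13 of 25 others. Just above the limit stood Col1a2 at 4.60, and just below it Col19a1 at 4.41, with Col9a1 at 4.35.

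That limit is not the background itself. The median of the 5222 intron control rows was lower, 4.16, and 25 collagen genes exceeded it. No collagen gene exceeded the 95th percentile of the intron rows, 6.87, a level passed by 26.1% of all tested rows. None exceeded the median of the 1324 exon control rows, 7.14, passed by 22.5% of tested rows. The array also carries background rows whose probes hold a set number of G and C bases, and their signal depends on that number. The background row with 4 such bases read 1.64 and the one with 23 read 6.44. Above the background row with 16 G or C (3.52) lay 33 collagen genes, above that with 20 (5.46) lay 14, and above that with 22 (6.37) lay 3, namely Col8a2, Col16a1 and Col22a1. The base composition of the collagen probes was not used here, so a bright value does not show that the transcript was detected, and values of different genes are not ranked as amounts of RNA.

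**Figure D1:**
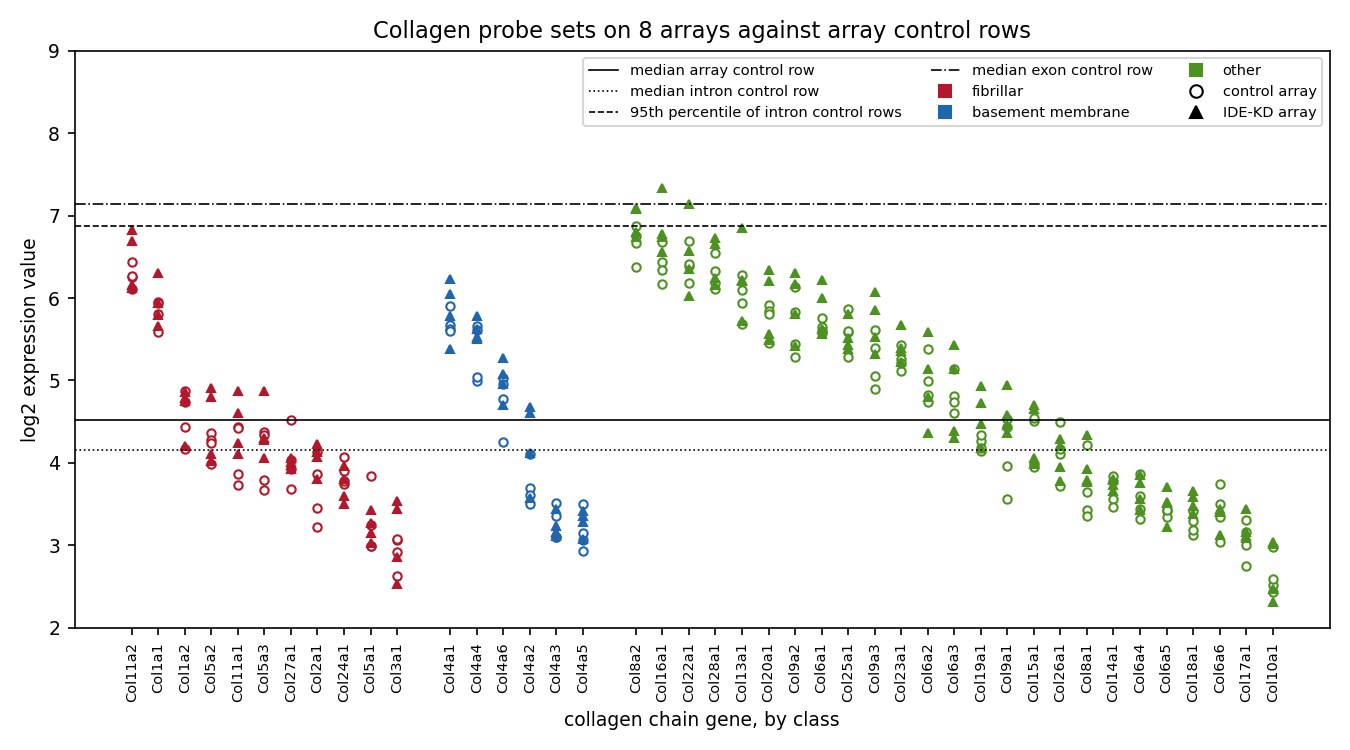
Log2 values of the 42 collagen genes (y axis) on 4 control arrays (open circles) and 4 IDE-KD arrays (triangles), grouped by class on the x axis, with horizontal lines at 4 levels of array control rows. The gene means lie between 2.67 and 6.80, and 0 of 42 pass the 95th percentile of the intron control rows at 6.87.

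Most collagen genes had a slightly higher mean in IDE-KD than in control cells, and no single gene passed the test. In limma with Benjamini-Hochberg adjustment over all 22142 rows, 0 of 42 passed an adjusted p under 0.05, as did 0% of all tested rows, and every collagen gene had an adjusted p of 1.00. Ide, the targeted gene, did not pass either, with a difference of -0.62 (SE 0.12) and an adjusted p of 0.9998. A gene that fails this threshold is therefore not shown to be unchanged. At an unadjusted p under 0.05 there were 6 collagen genes, all higher (14.3%), against 4.59% of tested rows in either direction, 2.69% in the higher and 1.91% in the lower direction. The groups were kept apart at 0 of 42 genes, against 2.8% of tested rows. The fitted difference, IDE-KD minus control, was above 0 for 33 genes and below 0 for 9, while 52.1% of all tested rows were above 0. The median difference was 0.15 over the collagen genes and 0.0074 over all tested rows. Taken per array, the median deviation of the 42 genes from their own means had a within-group SD of 0.17. The genes share the same arrays, so their counts are not counts of independent results. The 95% confidence interval excluded a 2-fold change for all 42 genes, against 99.7% of tested rows, and a 1.5-fold change for 27, which is 64.3% against 83.6%.

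The higher values were found among bright as well as dim genes. Of the 19 bright genes 16 were higher and 3 lower, with a median difference of 0.16. The 6622 tested rows between the limit and the brightest collagen gene had a median difference of -0.0038, and 49.2% of them were higher. Of the 23 dim genes 17 were higher and 6 lower, and their median difference was 0.13. Tested rows in the range of the dim collagen genes had a median of 0.057 and 61.7% of them were higher. The difference between dim and bright collagen genes was not tested. After renewed quantile normalization the dim median was 0.081 and the bright one 0.18, and the count of higher genes stayed at 17 of 23 and 16 of 19.

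**Figure D2:**
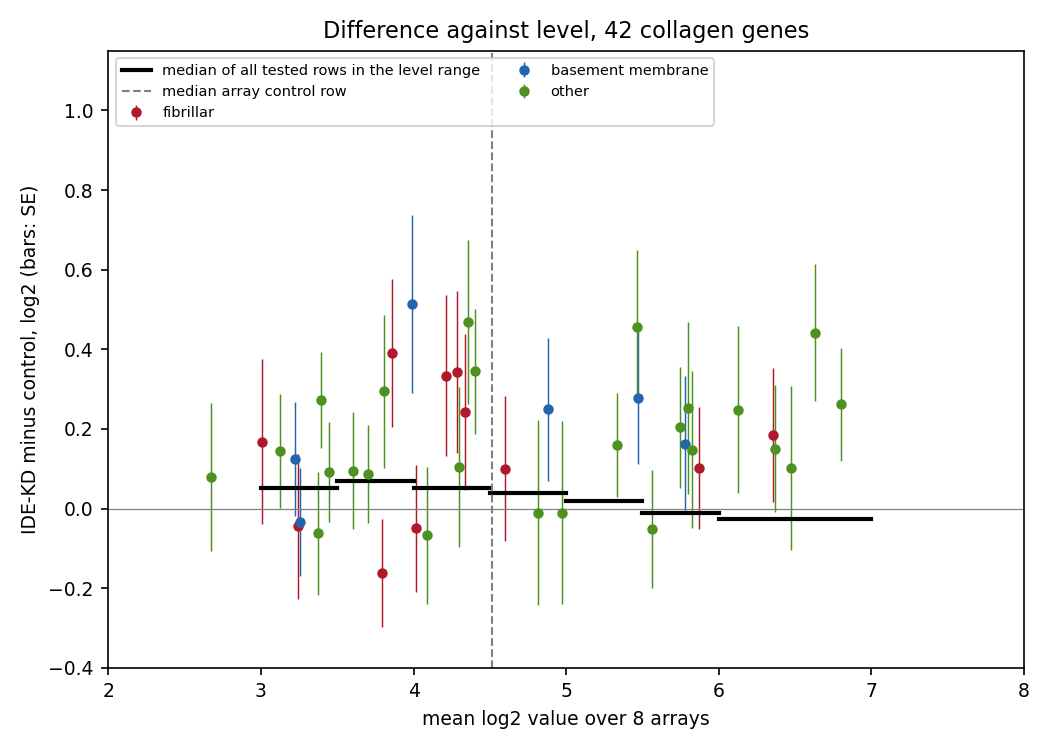
Fitted IDE-KD minus control difference (log2, y axis; bars are SE) against the mean log2 value over 8 arrays (x axis) for the 42 collagen genes, coloured by class, with black segments at the median difference of all tested rows in each level range and a dashed line at the dim limit of 4.52. Points above 0 stand on both sides of the limit, 17 of 23 dim and 16 of 19 bright genes.

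Collagen values were highest on 2 of the 4 IDE-KD arrays. Mean values of the bright genes were 5.87, 5.485, 5.685 and 5.52 on control arrays 1 to 4, and 6.03, 5.615, 6.09 and 5.55 on IDE-KD arrays 1 to 4. IDE-KD arrays 1 and 3 lay above every control array, and arrays 2 and 4 lay inside the control range. Mean values of the dim genes were 3.79, 3.58, 3.59 and 3.59 in control and 3.87, 3.77, 3.88 and 3.66 in IDE-KD cells, where arrays 1 and 3 were again highest and arrays 2 and 4 were below control array 1. For 14 of 42 genes (33.3%) IDE-KD arrays 1 and 3 were the 2 highest of the 8, a pattern seen at 8% of tested rows and looked for after the values were seen. IDE-KD array 3 held the highest value of 17 genes and array 1 of 9.

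Leaving out both of these arrays, a choice made after the values were seen, gave 24 of 42 genes higher and a median difference of 0.037. Among bright genes 7 of 19 were then higher and the median was -0.058, with 0.0073 for tested rows at their level. Among dim genes 17 of 23 were still higher, with a median of 0.067 against -0.027 for tested rows at their level. Without IDE-KD arrays 1 and 3 most bright genes were thus lower and most dim genes still higher. That setting kept control arrays 1 and 3, the controls with the highest means of the bright genes. With arrays 2 and 4 of each group only, 10 of 19 bright genes were higher, with a median of 0.0047. Among dim genes 17 of 23 were then higher, with a median of 0.10. Single arrays also moved these medians by over 1.5 times. The median of all 42 genes was 0.084 without IDE-KD array 3 and 0.26 without IDE-KD array 4. That of the bright genes was 0.062 without IDE-KD array 3, 0.26 without IDE-KD array 2 and 0.28 without IDE-KD array 4. That of the dim genes was 0.072 without control array 3, 0.20 without control array 1 and 0.21 without IDE-KD array 4.

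The same IDE-KD arrays stood apart in several kinds of rows that are no collagen genes, but not in all. The mean of the exon control rows was 6.95 and 6.92 on IDE-KD arrays 1 and 3, against 7.05 to 7.135 on the other 6 arrays. The mean of the intron control rows was 4.20 on each of them, against 4.25 to 4.38. The standard deviation over tested rows was 2.16 and 2.13 there, against 2.20 to 2.25. Background rows with 16 to 20 G or C averaged 4.815 on IDE-KD array 1 and 4.59 on IDE-KD array 3, against 4.39 to 4.58 elsewhere. Those with 21 or more averaged 6.46 on IDE-KD array 1 and 6.03 on IDE-KD array 3, against 5.77 to 6.275 elsewhere. In these 2 averages IDE-KD array 3 was thus level with or within the other arrays. Single background rows differed. With 16 G or C, IDE-KD arrays 1 and 3 read 3.71 and 3.64, against 3.40 to 3.55 on the other 6. With 17 G or C they read 4.16 and 4.03, against 3.82 to 3.97. With 20 G or C, IDE-KD array 3 read 5.46, within the 5.25 to 5.60 of those 6 arrays. Tested rows at the level of the bright collagen genes averaged 5.69 to 5.74 on all 8 arrays. Those at the level of the dim collagen genes did move, with 3.60 and 3.64 on IDE-KD arrays 1 and 3 against 3.44 to 3.56 on the other 6. The part of these array features in the collagen differences was not tested.

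**Figure D3:**
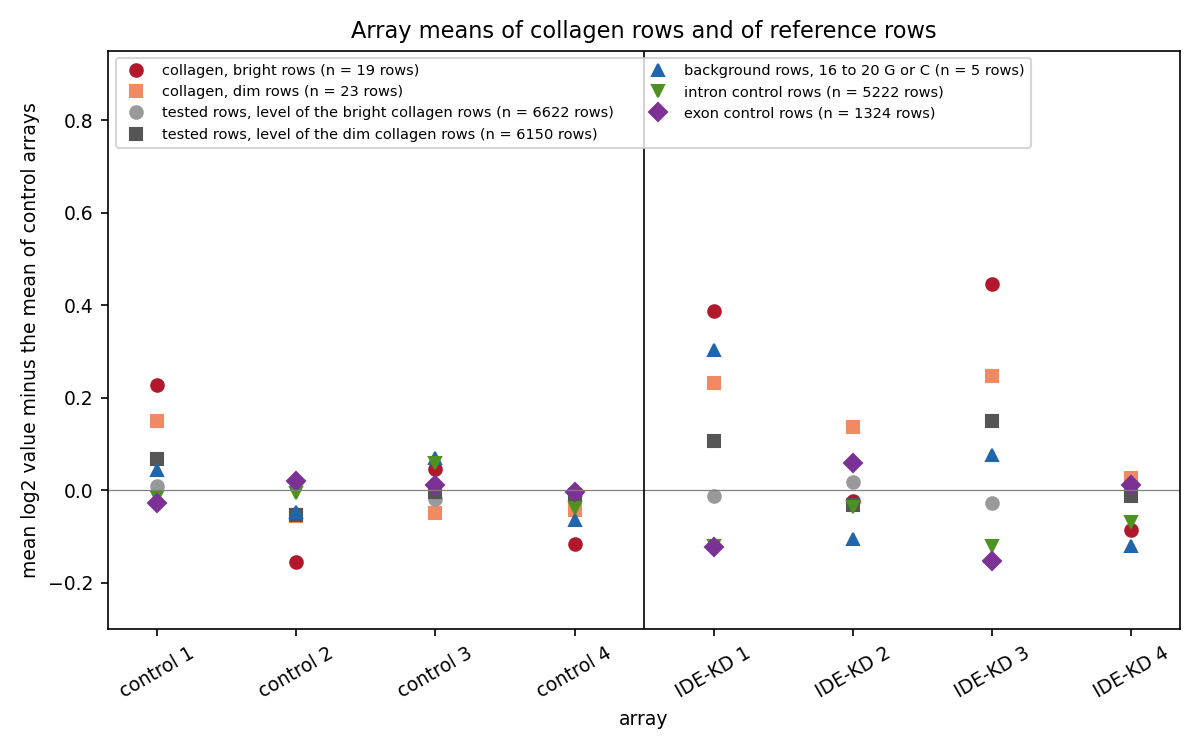
Mean log2 value of collagen rows and of reference rows on each array, minus the mean of the 4 control arrays (y axis), for the 8 arrays on the x axis. Bright collagen genes stand at 0.39 and 0.45 on IDE-KD arrays 1 and 3 and at -0.025 and -0.086 on arrays 2 and 4, while exon control rows stand at -0.12 and -0.15 on arrays 1 and 3.

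Among the type IV genes of basement membranes, 5 of 6 were higher, with a median difference of 0.21. Col4a1 read 5.91, 5.68, 5.62 and 5.59 on the control arrays and 6.05, 5.79, 6.23 and 5.39 on the IDE-KD arrays. IDE-KD arrays 1 and 3 were its highest and array 4 its lowest, so the groups overlapped fully. Its difference was 0.16 (SE 0.17, 95% confidence interval -0.21 to 0.53), and -0.11 without IDE-KD arrays 1 and 3. It was -0.050 with arrays 2 and 4 of each group only. Its head-to-head partner Col4a2 read 4.11, 3.70, 3.50 and 3.62 in control and 4.60, 4.12, 4.68 and 3.58 in IDE-KD cells. Here too IDE-KD arrays 1 and 3 were highest, and array 4 fell among the controls. Col4a2 had the largest fitted difference of the 42 genes, 0.51 (SE 0.22, interval 0.03 to 1.00), on a dim row, and it was 0.12 without IDE-KD arrays 1 and 3. The difference was 0.19 with arrays 2 and 4 of each group only.

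The other type IV chains have narrower expression, with Col4a3 and Col4a4 known from the kidney filter and Col4a5 and Col4a6 paired on the X chromosome. Col4a4 read 5.66, 4.997, 5.62 and 5.04 in control and 5.78, 5.53, 5.50 and 5.62 in IDE-KD cells. The IDE-KD arrays lay close together, with array 1 above the controls and the rest within their upper range, and the difference was 0.28 (SE 0.17). Col4a6 read 5.03, 4.26, 4.95 and 4.77 against 5.28, 4.95, 5.08 and 4.70, a difference of 0.25 (SE 0.18) that was 0.084 without control array 2, the lowest of its values. Col4a3 and Col4a5 were dim, with differences of -0.03 (SE 0.14) and 0.13 (SE 0.14). Without IDE-KD arrays 1 and 3 the median of the class was 0.096, and 5 of 6 genes were still above 0. With arrays 2 and 4 of each group only, the median was 0.255, again with 5 of 6 above 0. It was 0.12 without control array 2 and 0.13 without IDE-KD array 1, and reached 0.30 without IDE-KD array 4.

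Of the 11 fibrillar genes 8 were higher and 3 lower, with a median difference of 0.17. Without IDE-KD arrays 1 and 3 the median was -0.090 and 4 of 11 were above 0. It was -0.038 with arrays 2 and 4 of each group only, again with 4 above 0. It was 0.097 without control array 3 or IDE-KD array 1 and 0.055 without IDE-KD array 3. Col1a1, which encodes the main chain of type I collagen of bone and skin, read 5.95, 5.59, 5.81 and 5.94 in control and 5.94, 5.66, 6.30 and 5.79 in IDE-KD cells. Only IDE-KD array 3 lay outside the control range, and the difference of 0.10 (SE 0.15, interval -0.23 to 0.43) was -0.023 without that array. Col1a2, the partner chain of type I collagen, read 4.73, 4.17, 4.43 and 4.87 against 4.86, 4.75, 4.79 and 4.21. All IDE-KD values lay within the control range, and the difference was 0.10 (SE 0.18).

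Col11a2, a minor fibrillar chain of cartilage, read 6.26, 6.26, 6.44 and 6.10 in control and 6.69, 6.16, 6.82 and 6.13 in IDE-KD cells. IDE-KD arrays 1 and 3 were above all controls and arrays 2 and 4 within them. The difference was 0.19 (SE 0.17), and -0.12 without IDE-KD arrays 1 and 3. It was -0.038 with arrays 2 and 4 of each group only. The 8 dim fibrillar genes had differences from -0.16 for Col24a1 to 0.39 for Col2a1, the main cartilage collagen, and 5 of them were higher. Col3a1, the fibrillar chain of vessels and distensible tissue, had mean values of 2.92 and 3.09 in control and IDE-KD cells, among the lowest of the group.

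**Figure D4:**
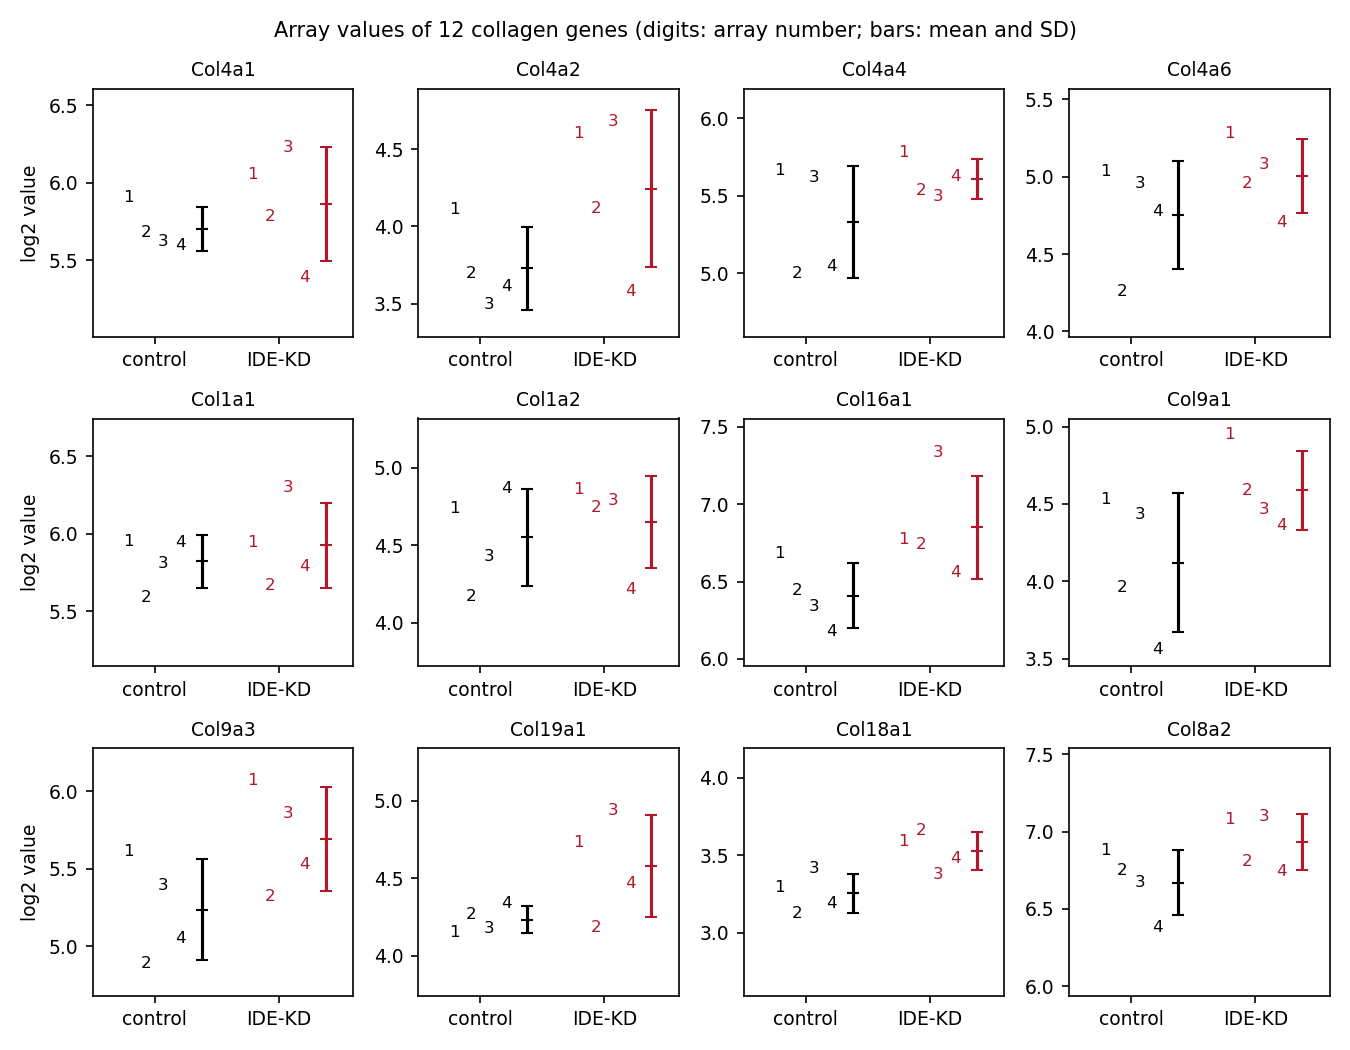
Log2 values of 12 collagen genes (y axis, each panel spanning the same height) in control and IDE-KD cells (x axis), with digits for array numbers and bars for the mean and SD of 4 arrays. The groups overlap in every panel, and IDE-KD arrays 1 and 3 are the highest for Col4a1 and Col4a2.

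FACIT chains sit on the surface of other fibrils, and all 8 measured genes of this kind were higher in IDE-KD cells, with a median difference of 0.30. Leaving out IDE-KD arrays 1 and 3 left 5 of the 8 higher, with a median of 0.079. They included 4 of the 6 collagen genes with an unadjusted p under 0.05. Col16a1 read 6.68, 6.44, 6.34 and 6.18 in control and 6.77, 6.74, 7.33 and 6.56 in IDE-KD cells. IDE-KD arrays 1, 2 and 3 exceeded all controls and array 4 did not. Its difference was 0.44 (SE 0.17, interval 0.07 to 0.81), with 0.28 without IDE-KD array 3. Col9a3 read 5.61, 4.89, 5.39 and 5.05 against 6.07, 5.32, 5.86 and 5.53, with IDE-KD arrays 1 and 3 above all controls, and differed by 0.46 (SE 0.19, interval 0.04 to 0.87). Without both of those arrays the values were 0.24 for Col16a1 and 0.19 for Col9a3. With arrays 2 and 4 of each group only they were 0.34 for Col16a1 and 0.45 for Col9a3.

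Col9a1, like Col9a3 a type IX chain of cartilage, read 4.53, 3.96, 4.43 and 3.56 in control and 4.95, 4.59, 4.46 and 4.36 in IDE-KD cells. The wide control spread overlapped the IDE-KD values, and the difference of 0.47 (SE 0.21) was 0.28 without control array 4. Col19a1 read 4.15, 4.27, 4.18 and 4.34 against 4.73, 4.18, 4.94 and 4.47, with IDE-KD array 2 inside the control range. Its difference was 0.35 (SE 0.16), and 0.09 without IDE-KD arrays 1 and 3. It was 0.020 with arrays 2 and 4 of each group only. Col9a2, the third type IX chain, read 6.13, 5.28, 5.83 and 5.44 in control and 6.17, 5.80, 6.30 and 5.42 in IDE-KD cells. The groups overlapped over most of their range, and the difference was 0.25 (SE 0.22).

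Col20a1 read 5.91, 5.84, 5.80 and 5.46 in control and 6.34, 5.565, 6.21 and 5.49 in IDE-KD cells, with IDE-KD arrays 1 and 3 above all controls and a difference of 0.15 (SE 0.20). Col22a1 read 6.69, 6.18, 6.39 and 6.42 against 7.14, 6.35, 6.575 and 6.02, a difference of 0.10 (SE 0.21). Its IDE-KD array 1 alone exceeded the controls, and array 4 lay below them. Dim Col14a1 differed by 0.09 (SE 0.12). Once IDE-KD arrays 1 and 3 were left out, Col20a1 stood at -0.23, Col22a1 at -0.23 and Col9a2 at -0.058. With arrays 2 and 4 of each group only, Col20a1 stood at -0.12, Col22a1 at -0.11 and Col9a2 at 0.25.

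Col18a1, a multiplexin of basement membranes that also yields the endostatin fragment, was the remaining gene with an unadjusted p under 0.05. It read 3.29, 3.12, 3.41 and 3.19 in control and 3.59, 3.66, 3.38 and 3.48 in IDE-KD cells, a difference of 0.27 (SE 0.12). A single IDE-KD value lay below the highest control, and the difference was 0.32 without IDE-KD arrays 1 and 3, which is no smaller. Both group means were far below the limit. The other multiplexin, Col15a1, differed by 0.10 (SE 0.20).

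Type VI chains form beaded microfilaments around cells, and their 6 genes split evenly, with 3 higher, 3 lower and a median of 0.041. Col6a1 read 5.65, 5.60, 5.75 and 5.58 in control and 6.002, 5.56, 6.21 and 5.62 in IDE-KD cells. Its IDE-KD arrays 1 and 3 were above all controls, and the difference was 0.20 (SE 0.15), or -0.053 without them. It was 0.0047 with arrays 2 and 4 of each group only. Col6a2 read 5.38, 4.82, 4.99 and 4.74 against 5.59, 4.36, 5.14 and 4.80, and Col6a3 read 5.14, 4.81, 4.73 and 4.60 against 5.14, 4.38, 5.43 and 4.30. Their differences were both -0.01 (SE 0.23 each), with IDE-KD array 2 or 4 at the bottom and 1 or 3 at the top. Without IDE-KD arrays 1 and 3 they were -0.40 for Col6a2 and -0.48 for Col6a3. They were -0.20 and -0.37 with arrays 2 and 4 of each group only. The dim genes Col6a4, Col6a5 and Col6a6 differed by 0.10, 0.09 and -0.06.

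Transmembrane collagens are anchored in the cell surface, and 3 of their 4 genes were higher, with a median of 0.15, or 2 of 4 with 0.0030 without IDE-KD arrays 1 and 3. Col13a1 read 6.27, 5.68, 5.94 and 6.10 in control and 6.22, 6.20, 6.85 and 5.72 in IDE-KD cells, with IDE-KD array 3 alone above the controls. Its difference of 0.25 (SE 0.21) was 0.05 without that array. Col25a1, whose product is found in amyloid plaques, read 5.59, 5.61, 5.86 and 5.28 against 5.80, 5.38, 5.52 and 5.43, a difference of -0.05 (SE 0.15). Col23a1 read 5.43, 5.26, 5.12 and 5.21 against 5.36, 5.22, 5.67 and 5.40, a difference of 0.16 (SE 0.13) that was 0.074 without IDE-KD array 3, its highest value. Dim Col17a1, a chain of the skin's hemidesmosomes, differed by 0.15 (SE 0.14).

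The network chains were higher in 3 of 3 genes, with and without IDE-KD arrays 1 and 3. Their median was 0.26 with all arrays and 0.105 without those 2. Col8a2 read 6.88, 6.75, 6.67 and 6.38 in control and 7.08, 6.81, 7.10 and 6.74 in IDE-KD cells, with arrays 1 and 3 again above the controls, and differed by 0.26 (SE 0.14, interval -0.05 to 0.57). Dim Col8a1 and Col10a1 differed by 0.29 (SE 0.19) and 0.08 (SE 0.19). Col28a1 read 6.55, 6.11, 6.33 and 6.18 against 6.24, 6.15, 6.73 and 6.65, a difference of 0.15 (SE 0.16) in which IDE-KD arrays 3 and 4 were the highest. It was 0.053 without IDE-KD array 3, 0.081 without IDE-KD array 4, 0.089 without control array 2, 0.24 without control array 1 and 0.25 without IDE-KD array 2. Col26a1 differed by -0.07 (SE 0.17). Over all 25 genes outside the fibrillar and type IV classes, 20 were higher with a median of 0.15. Leaving out IDE-KD arrays 1 and 3, 15 were higher with a median of 0.048. With arrays 2 and 4 of each group only, 18 were higher with a median of 0.077. Without IDE-KD array 3 alone the median was 0.085, and without IDE-KD array 4 it was 0.22.

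**Figure D5:**
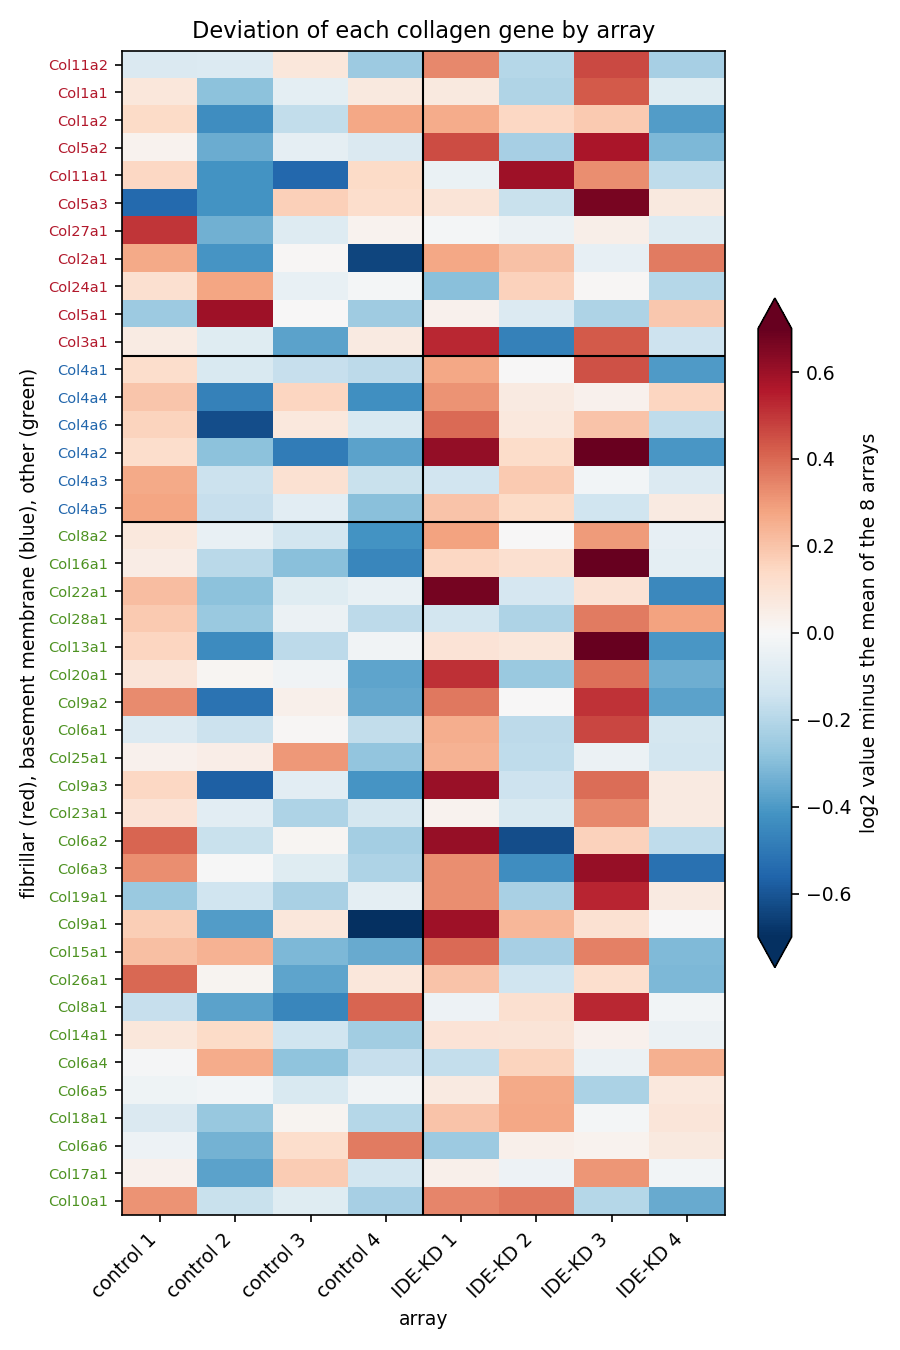
Deviation of each collagen gene on each array from its own mean over 8 arrays (log2, colour), with genes in rows by class and arrays in columns. The columns with the highest means are IDE-KD arrays 1 and 3, which hold the highest value of 9 and 17 of the 42 genes. Control array 1 follows with a mean of 4.73, above IDE-KD arrays 2 and 4 at 4.61 and 4.52.

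Genes that fold, secrete, cross-link, bind and break down collagen were followed in lists of textbook members. In each of 6 lists 0 genes passed the adjusted threshold in either direction. In folding and modification the median was -0.072, with 5 of 15 genes higher and 10 lower, but 8 higher and a median of 0.021 without IDE-KD arrays 1 and 3. P3h2, a prolyl hydroxylase gene, differed by 0.42 (SE 0.15) at levels of 1.87 and 2.30, near the low end of the array's values. Crtap, a cartilage-associated partner of prolyl hydroxylases, differed by 0.50 (SE 0.22). Its IDE-KD array 2 read 7.47, against 6.32 to 6.67 on the other IDE-KD arrays and 5.88 to 6.49 on control arrays. Fkbp14, a prolyl isomerase gene, differed by -0.31 (SE 0.20). In secretion the median was -0.083, with 2 of 8 higher and 6 lower, or 3 higher and -0.044 without IDE-KD arrays 1 and 3. Creb3l1, which encodes a transcription factor activated by membrane cleavage, differed by -0.36 (SE 0.13), Sec23a, a coat protein gene of vesicles leaving the endoplasmic reticulum, by -0.34 (SE 0.18) and Sar1b, a GTPase gene of the same coat, by 0.17 (SE 0.18).

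In processing and cross-linking the median was 0.097, with 11 of 13 genes higher and 2 lower, and with 10 higher without IDE-KD arrays 1 and 3. The lysyl oxidase gene Lox differed by 0.33 (SE 0.15) at a control level of 2.385, the procollagen protease gene Adamts14 by 0.28 (SE 0.17) and Loxl4 by 0.19 (SE 0.14). Array means of this list were 4.86, 4.63, 4.51 and 4.62 in control and 4.81, 4.70, 4.81 and 4.81 in IDE-KD cells, so control array 1 lay above all IDE-KD arrays. Collagen receptors had 4 higher and 5 lower of 9, with a median of -0.063, or 3 higher and -0.13 without IDE-KD arrays 1 and 3. Itga11, an integrin of fibroblasts, differed by 0.30 (SE 0.15) and the leukocyte receptor gene Lair1 by 0.30 (SE 0.20). The collagen receptor kinase gene Ddr2 differed by -0.16 (SE 0.11) at levels of 6.65 and 6.485.

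Collagen breakdown had 3 higher and 6 lower of 9, with a median of -0.098, or 2 higher and -0.12 without IDE-KD arrays 1 and 3. Its members Timp1, an inhibitor of metalloproteases, Mmp8, a collagenase, and Mmp14, a membrane-bound collagenase, differed by -0.40 (SE 0.17), -0.37 (SE 0.17) and -0.34 (SE 0.17), all on dim rows. Partners of type IV collagen in the basement membrane had 6 higher and 8 lower of 14, with a median of -0.036, or 4 higher and -0.17 without IDE-KD arrays 1 and 3. The laminin gene Lamb1 differed by -0.58 (SE 0.20), the perlecan gene Hspg2 by -0.27 (SE 0.21) and another laminin gene, Lamb3, by 0.20 (SE 0.16) at levels of 1.88 and 2.08.

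Markers of other cell types are given beside the collagen differences. The summed log2 value of the 9 fibroblast and stellate markers ranged from 38.3 to 39.8 on control arrays and from 38.6 to 40.6 on IDE-KD arrays. That of 6 endothelial markers ranged from 24.6 to 26.5 and from 24.99 to 26.3, and that of 4 immune markers from 12.9 to 13.4 and from 12.75 to 14.2. Of the fibroblast and stellate markers 5 of 9 were higher in IDE-KD cells, with a median difference of 0.048, or 6 of 9 with 0.095 without IDE-KD arrays 1 and 3, and none passed the adjusted threshold. Lum differed by 0.30 (SE 0.13) and Thy1, a surface glycoprotein gene, by 0.31 (SE 0.15). Of the endothelial markers 5 of 6 were higher, with a median of 0.082, or 3 of 6 with -0.0073 without IDE-KD arrays 1 and 3. Pecam1 and Cdh5, which define endothelial cells, read 4.06 and 2.63 in control and 4.28 and 2.70 in IDE-KD cells, and Tek, an angiopoietin receptor gene, read 2.97 and 3.22. The vascular growth factor receptor gene Kdr alone was above the limit and alone was lower, with means of 8.87 and 8.47 and no overlap of the groups. Its difference of -0.40 (SE 0.11) had an adjusted p of 0.9998 in limma, and no endothelial marker passed the adjusted threshold. Groups without overlap were seen at 2.8% of all tested rows.

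No immune marker was above the limit, and 3 of 4 were higher, with a median of 0.045, or 2 of 4 with -0.13 without IDE-KD arrays 1 and 3. The T cell receptor component gene Cd3e read 2.885, 3.12, 2.87 and 2.81 in control and 3.44, 3.20, 3.40 and 3.405 in IDE-KD cells. These dim values did not overlap, and the difference was 0.44 (SE 0.12), with an adjusted p of 1.00 in limma. The part of these markers in the collagen differences was not tested. In such bulk samples fewer cells of a type and less RNA per cell cannot be told apart.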

How the data were processed

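Total RNA of 8 samples was hybridised to mouse Clariom S arrays. The deposited values are log2 expression values; the tools RMA, oligo and limma appear in the submitters' processing notes, with versions not given in the sources used here. RMA usually subtracts background, equalises array distributions and summarises probes, so a global change in RNA would be removed. Of 29129 rows, 22142 transcript clusters were tested, 6923 were array controls and 64 unplaced rows were left out. The platform table named 19527 tested rows with 1 symbol each and gave 0 with several. Control rows named pos and neg in the table are exon and intron controls by the array maker's design. IDE-KD minus control was fitted with limma 3.58.1 in R 4.3.3 on values as deposited, without covariates, with Benjamini-Hochberg adjustment and a threshold of 0.05. The fit was tested on simulated data with 200 changed rows. Of 1.5-fold changes 39.3% were called and of 2-fold changes 95.5%, with 7.51% of all calls false. The simulated rows were independent and lacked the array features described above, so these shares need not hold for the real arrays. The number of arrays limits precision: the median half-width of a 95% interval was 0.37 for collagen genes. Values on every array are given for all bright members, for Col4a1 and Col1a1, and for the 6 with the smallest p. From each list of related genes up to 3 with the smallest p are named. The members and lists were chosen with earlier results of these data known.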

Additional observations from a re-analysis of the deposited data

Results flagged for a closer look

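A sample far from the others of its group was found at 2 of the 84 gene and group combinations examined with Dixon's test, which chance marks in about 5% of groups. Col6a6, a type VI chain gene, read 3.12 on IDE-KD array 1, below the other IDE-KD arrays at 3.40 to 3.45. Col6a5, its neighbour in the same cluster, read 3.34 on control array 3, below the other control arrays at 3.415 to 3.43. Both genes were dim.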

How the results depend on the processing

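No collagen gene and no other row passed the adjusted threshold under any alternative run, with a smallest adjusted p of 0.58 among the named collagen genes. The labels give both groups the replicate numbers 1 to 4, and deviations of same-numbered arrays correlated at 0.088 to 0.13. Those of different-numbered arrays ran from -0.23 to 0.21. All same-numbered values were positive, so these ranges do not settle whether the numbers mark pairs. The main fit took no pairs. Control array 1 correlated at 0.17 with IDE-KD array 3, and control array 3 at 0.16 with IDE-KD array 1, so some structure was shared across the groups. With the replicate block the count of collagen genes past the threshold stayed at 0, and 5 instead of 6 had an unadjusted p under 0.05. Over all tested rows that unadjusted count rose from 1017 to 1253. The block lowered the SE of Col9a3 from 0.19 to 0.12 and that of Col6a2 from 0.23 to 0.14. The SE rose slightly for Col1a2, Col18a1, Col19a1 and Col23a1 and fell for the other named collagen genes. Leaving out each array moved the dim median between 0.072 and 0.21, and the count of genes whose groups did not overlap between 0 and 2. The fibrillar median was -0.090 without IDE-KD arrays 1 and 3 and -0.038 with arrays 2 and 4 of each group only; both settings, and the limits from background rows, were chosen after seeing the data. With arrays 2 and 4 only, the bright median was 0.0047 and 27 of 42 genes were higher. The count of genes above the limit was 0 at the 95th percentile of intron rows, 0 at the median exon row, 33 at the background row with 16 G or C and 3 at that with 22, and the first 2 of these leave no bright gene for a median.
Of 406 values of named genes under other settings, 25 from 12 genes changed sign, none of them past the threshold. Without IDE-KD arrays 1 and 3 these were Col20a1 (-0.23), Col9a2 (-0.058), Col1a2 (-0.072), Col4a1 (-0.11), Col13a1 (-0.039), Col6a1 (-0.053), Col1a1 (-0.095), Col22a1 (-0.23) and Col11a2 (-0.12). With arrays 2 and 4 only they were Col20a1 (-0.12), Col1a2 (-0.040), Col4a1 (-0.050), Col1a1 (-0.038), Col22a1 (-0.11) and Col11a2 (-0.038). Leaving out single arrays gave -0.21 to 0.16 for Col6a3, -0.22 to 0.19 for Col6a2, -0.15 to 0.040 for Col25a1, -0.027 to 0.25 for Col1a2, -0.023 to 0.19 for Col1a1 and -0.10 to 0.27 for Col22a1. Each collagen symbol had 1 row, so the choice of 1 row per gene changed nothing, and counting the multiplexins with type IV left its median at 0.21 and that of the other genes at 0.15. Signal over background limits all of these values.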
